A study of Nothobranchius furzeri with 24 samples.

Results

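Female and male brains of wild turquoise killifish (Nothobranchius furzeri, labelled strain MZM_A41, a wild population called A41) were compared at 108 days post hatch (dph). The 8 libraries were picked by the age and sex in their labels, which gave 4 females and 4 males out of 24 libraries in all. The other 16 libraries came from 4 females and 4 males at 39 dph and as many at 73 dph. They were used to measure the same genes in other fish and to test differences between ages. In an alternative fit of all 24 libraries they also entered the estimate of the spread. Each library held the poly(A) RNA of 1 whole brain. The fish were caught in a natural pond and dissected at once, so their diet, health and breeding state were not set by the study, and both sexes came from the same population.

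Sex differences in the brain of bony fishes often involve oestrogen made locally. Aromatase, the product of CYP19A1 genes, turns androgens into oestrogens, and bony fishes keep a brain form and an ovarian form of the gene; the brain form is known for strong expression in radial glia, and oestrogen itself raises it. In this species sex is determined genetically by an XY system with GDF6 as the sex-determining gene on the Y chromosome.

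The libraries of 108 dph held between 14219725 and 19346170 reads assigned to genes, and none of them stood apart in depth. Among the other libraries, female 4 of 39 dph held 4595506 reads and male 4 of 39 dph 10019750. Both entered every fit that used fish of 39 dph. The study's text counts fewer samples than the 24 labelled, and all 24 were used. Expression is given as CPM, the read count of a gene relative to all assigned reads of its library, scaled between libraries by the trimmed mean of M values (TMM). Of 26739 gene IDs, 18468 passed the filter on low counts and were tested. Gene symbols are the human names that the study's supplementary tables pair with the IDs, which exist for 7297 of the genes tested; a gene without one is given by its ID.

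The label whole brain was checked against marker genes. All 9 IDs of 7 neuron markers (SNAP25, SYT1, SYP, ELAVL3, GAD1, GAD2 and SLC17A6) and the glia markers GFAP, S100B, FABP7, MBP and MAG were read in every fish. The neuron markers summed to 4127 to 4450 CPM in females and 3878 to 4780 CPM in males. Markers of neighbouring tissue varied between fish. GH1, growth hormone of the pituitary, was at 2.15, 4156, 3.05 and 42.8 CPM in females 1 to 4, against 4421, 2887, 5.10 and 2.54 CPM in males 1 to 4. GH1 was thus high in female 2 and in males 1 and 2 and low in the other fish, and the count of calls at 108 dph was also taken without those 3 libraries. In bulk tissue, fewer cells of a type and less RNA per cell cannot be told apart.

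**Figure D1:**
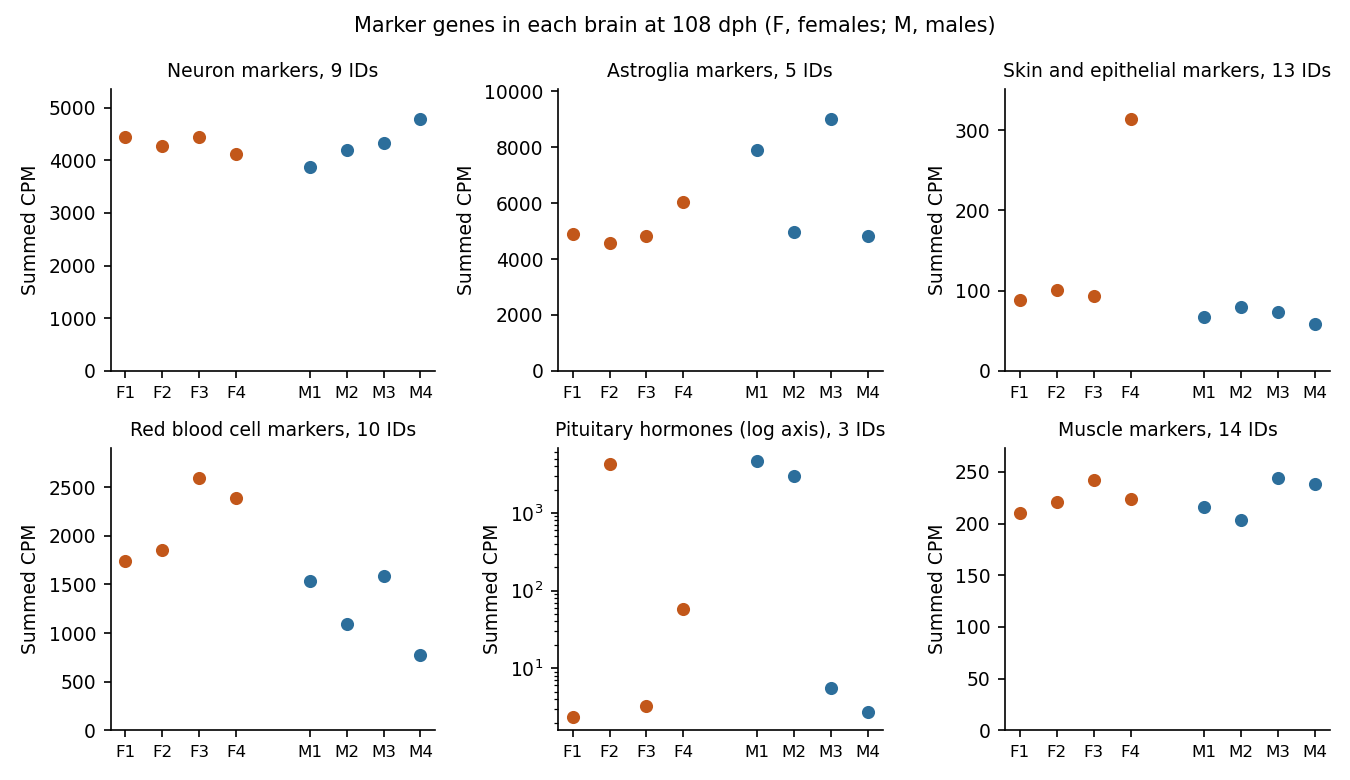
Summed CPM of marker genes in each brain at 108 dph, with females 1 to 4 (orange) left of males 1 to 4 (blue) and 1 point per fish; the number of gene IDs summed is in each panel title, and the pituitary panel has a log axis. Neuron markers lie between 3878 and 4780 CPM in all 8 fish, female 4 has 313.8 CPM of skin and epithelial markers, and the red blood cell markers of all 4 females exceed those of all 4 males.

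The comparison asked which genes differed between female and male brains at this age. No gene passed a false discovery rate (FDR) of 0.05 in edgeR's quasi-likelihood test (0%), while 909 genes (4.92%) had an unadjusted p below 0.05. Of these, 538 (2.91%) were higher and 371 (2.01%) were lower in females. Of all genes tested, 9222 had a positive log2 fold change, and the median was 0.00. In 298 genes (1.61%) all 4 females lay above all 4 males, and in 212 genes (1.15%) all 4 females lay below them. Without any sex difference, an unadjusted p falls below 0.05 at a rate of about 0.05. Of the 70 arrangements of 4 against 4 fish, a share of 0.0286 keeps the groups apart in either direction. The counts of genes at that p and of separated genes are therefore no evidence of sex differences by themselves. DESeq2 on the same counts called 41 genes (0.222%), 29 higher and 12 lower in females, so the number of genes called depended on the tool. The gene of smallest p was CYP19A1, with an edgeR FDR of 0.0971.

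The 10 genes of smallest p in each direction are therefore given as values, not as calls. DESeq2 called all 20 of them from the same counts, so this is no separate evidence. Their edgeR FDR was 0.0971 for CYP19A1, 0.104 for RBP4 and for Nfu_g_1_005368, 0.352 for DNAJC17 and Nfu_g_1_009745, 0.583 for Nfu_g_1_006531 and 0.755 for 13 others. CYP19A1, ESR1 and SYBU were also named by rule, and other genes, mostly examples from gene lists, were chosen after their values were seen.

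**Figure D2:**
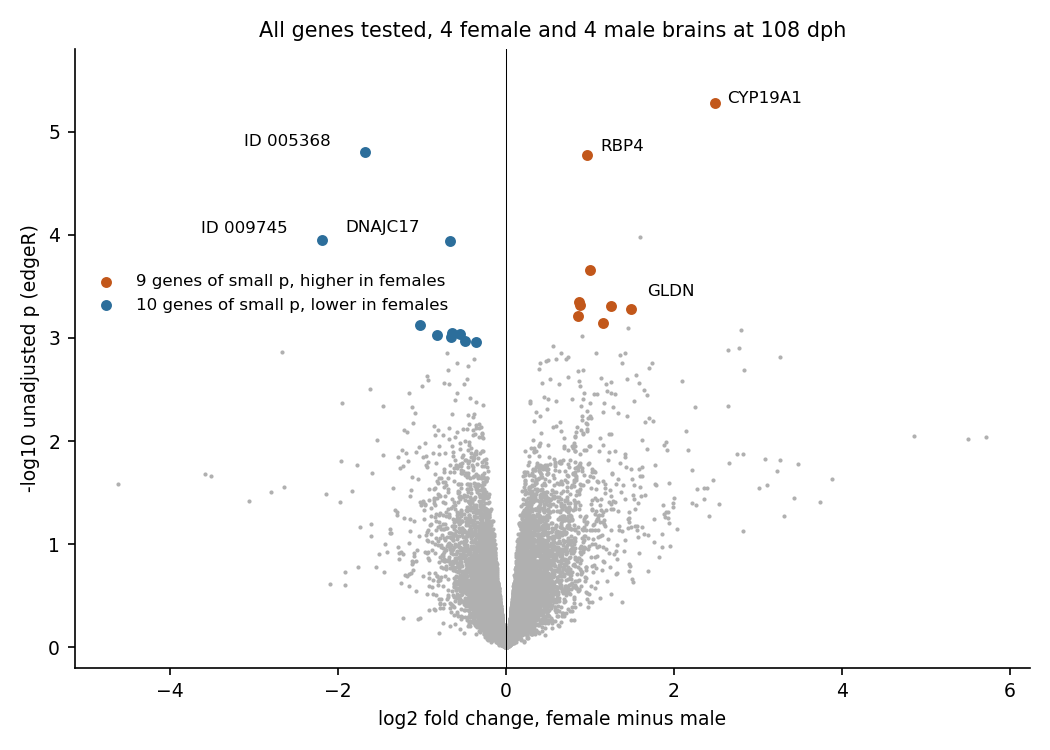
Each of the 18468 genes tested is a point, with the log2 fold change (female minus male) on the x axis and minus log10 of the unadjusted edgeR p on the y axis; 9 of the 10 genes of smallest p that were higher in females are orange, and the 10 that were lower in females are blue. A gene without a name is marked by the last digits of its ID. CYP19A1, at a log2 fold change of 2.49, has the smallest p of all genes.

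CYP19A1 (Nfu_g_1_007967), aromatase, was at 304.6, 284.5, 274.8 and 123.8 CPM in females, against 51.9, 55.0, 36.4 and 33.0 CPM in males. All 4 females lay above all 4 males, although female 4 had less than the other 3 females. The means were 247 ± 83.0 CPM in females and 44.1 ± 10.99 CPM in males (SD, n = 4 each), a ratio of 5.601 and a fitted log2 fold change of 2.49 ± 0.28 (SE). DESeq2 gave an adjusted p of 1.14e-16. Without female 4 the log2 fold change was 2.71 and the gene passed in edgeR (FDR 0.00175), and in a fit that took the spread from all 24 libraries it passed as well (FDR 0.0079). Over the other edgeR alternatives its FDR lay between 0.071 and 0.627, with the highest in the smaller fit without the 3 GH1-rich libraries.

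Nfu_g_1_016264 also carries the human name CYP19A1, and the study's annotation calls it CYP19A1A, the name of the ovarian form in fishes. It had 0.245, 0.165, 0.972 and 1.08 CPM in females, against 1.37, 0.330, 0.364 and 0.226 CPM in males, too few reads to be tested. The sexes overlapped fully. Per length, on the RPKM scale (reads relative to gene length and to all assigned reads of the library), Nfu_g_1_007967 was at a mean level of 165.3 in females and 29.3 in males, whereas Nfu_g_1_016264 was at 0.214 in females and 0.196 in males.

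Of the 12 steroid hormone enzymes and receptors tested, 1 had an unadjusted p below 0.05 (CYP19A1, higher in females, against 2.91% of all genes) and none was lower at that level. The median log2 fold change of the list was 0.02, against 0.00 over all genes tested, and its members ranged over -0.49 to 2.49. Of the 12, 7 had positive log2 fold changes, against 9222 of all 18468 genes. The oestrogen receptor ESR1 has 2 IDs. Nfu_g_1_018712 averaged 13.6 ± 2.63 CPM in females and 12.95 ± 3.77 CPM in males, and Nfu_g_1_019052 averaged 18.9 ± 1.06 CPM in females and 17.5 ± 0.977 CPM in males (SD, n = 4 each). Their log2 fold changes were 0.07 ± 0.22 and 0.11 ± 0.10 (SE). HSD11B2, which inactivates glucocorticoids, stood at a log2 fold change of 0.50 ± 0.23 (SE) and did not pass.

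RBP4, the retinol-binding protein that carries vitamin A in blood, was the second of the genes higher in females. Nfu_g_1_022977 was at 426.6, 312.2, 355.3 and 363.9 CPM in females, against 208.9, 195.5, 189.6 and 151.0 CPM in males. The lowest female lay well above the highest male. The log2 fold change was 0.97 ± 0.13 (SE), and the ratio of the means was 1.96. Per length RBP4 was the most abundant of the 20 genes, at a mean of 628 RPKM in females and 318 RPKM in males.

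GLDN encodes gliomedin, which Schwann cells secrete where they form nodes of Ranvier in mammals. It was at 14.8, 16.8, 10.5 and 13.3 CPM in females, against 4.33, 7.77, 5.05 and 2.60 CPM in males, and the groups did not overlap. Its log2 fold change was 1.48 ± 0.30 (SE). The other 12 members tested of the myelin and oligodendrocyte list had log2 fold changes with unadjusted p above 0.05, and the median of the list was -0.03.

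A cytochrome P450 of the CYP3A family, enzymes that oxidise steroids and drugs, was also among the 10 genes higher in females. CYP3A43 (Nfu_g_1_007097) averaged 43.1 ± 5.49 CPM in females and 23.6 ± 5.36 CPM in males (SD, n = 4 each). LRRC31, a protein with leucine-rich repeats, averaged 15.9 ± 4.62 CPM in females and 6.72 ± 1.45 CPM in males. The 4 genes without a name were Nfu_g_1_006531, Nfu_g_1_007646, Nfu_g_1_022875 and Nfu_g_1_010309, with log2 fold changes of 0.99, 0.88, 0.86 and 1.16. In all 10 of these genes the lowest female exceeded the highest male, against 1.61% of all genes. The 10 were picked by small p in these same fish, which favours such a gap, so the count is no separate evidence.

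**Figure D3:**
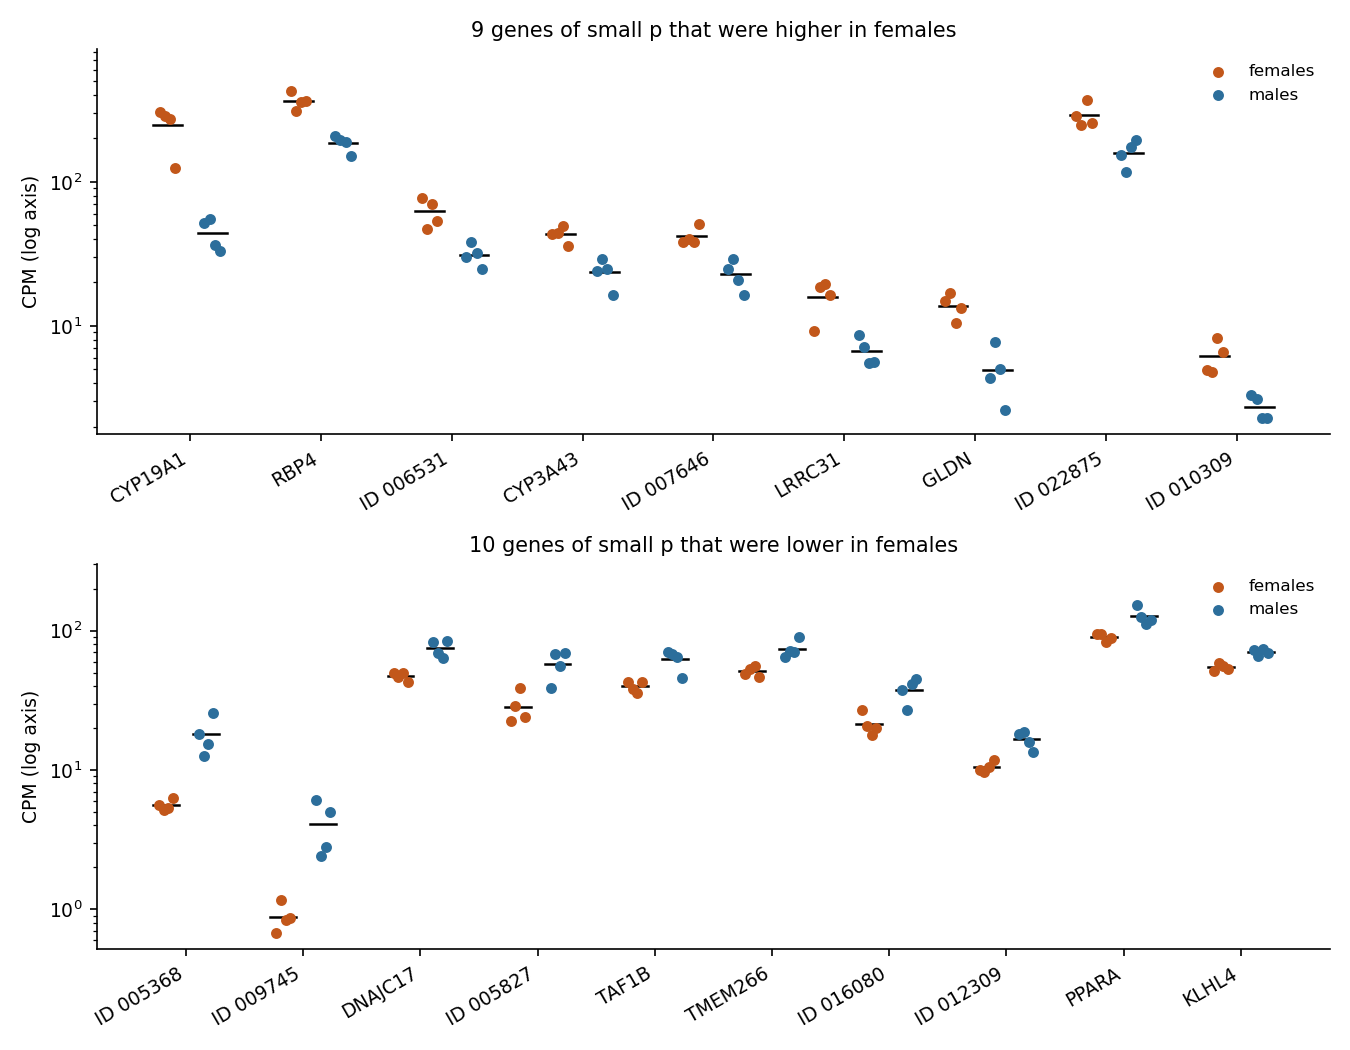
CPM of each fish on a log axis for 19 of the 20 genes of smallest p, females (orange) left of males (blue), with a bar at the mean of the 4 fish. The top row holds 9 genes higher in females and the bottom row the 10 genes lower in females; Nfu_g_1_016080 is the 1 gene of the 20 in which a female (26.98 CPM) reached above a male (26.82 CPM).

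Among the genes lower in females, the largest fold changes were in 2 genes without a name. Nfu_g_1_005368 was at 5.58, 5.17, 5.35 and 6.33 CPM in females, against 18.2, 12.6, 15.4 and 25.7 CPM in males. The females lay within a narrow range and every male had more than each of them, with a log2 fold change of -1.68 ± 0.22 (SE). Nfu_g_1_009745 was at 0.675, 1.16, 0.833 and 0.866 CPM in females, against 6.06, 2.42, 2.81 and 5.02 CPM in males, at a log2 fold change of -2.19 ± 0.36 (SE). This is a gene of low counts, with 11 to 89 reads per library.

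DNAJC17, a J-domain co-chaperone linked to splicing, was at 49.7, 46.8, 49.6 and 42.6 CPM in females, against 83.6, 68.9, 64.1 and 83.9 CPM in males. The ranges were apart, and the log2 fold change was -0.67 ± 0.11 (SE). With the spread taken from all 24 libraries DNAJC17 passed (FDR 0.0455), while over the other edgeR alternatives its FDR lay between 0.26 and 0.936.

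TAF1B, a subunit of the factor that recruits RNA polymerase I to ribosomal RNA genes, averaged 39.9 ± 3.30 CPM in females and 62.5 ± 11.5 CPM in males. PPARA, the nuclear receptor that controls fatty acid oxidation, averaged 90.7 ± 5.97 CPM in females and 127.6 ± 17.9 CPM in males. TMEM266, a membrane protein with a voltage-sensor domain, averaged 51.1 ± 4.40 CPM in females and 74.4 ± 11.2 CPM in males (SD, n = 4 each). In these 3 genes the females were lower without overlap, against 1.15% of all genes, by ratios that were modest beside that of CYP19A1. The 3 were picked by small p in these same fish, which favours such a gap. KLHL4, a kelch-like protein, had the smallest log2 fold change of the 20, at -0.36 ± 0.08 (SE). The remaining 3 genes were Nfu_g_1_005827, Nfu_g_1_016080 and Nfu_g_1_012309, with log2 fold changes of -1.03, -0.82 and -0.65.

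The 16 fish of 39 and 73 dph share no animal with the fish of 108 dph, so they give a separate measurement of the same genes. Fitted together with age as a term, they called 1 gene of 19006 tested (0.00526%), and that gene was CYP19A1, higher in females by 2.04 ± 0.24 (SE) on the log2 scale, with an FDR of 0.00366. In the fish of 39 dph alone, which are part of the 16, CYP19A1 was the 1 gene called (0.00543%), with an FDR of 0.0351. At 73 dph no gene was called (0%), with 877 genes at an unadjusted p below 0.05 and 31 genes called by DESeq2. CYP19A1 stood there at a log2 fold change of 1.91 ± 0.39 (SE), with an edgeR FDR of 0.915.

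The 20 genes were then read in those fish. Of the 10 genes higher in females, 10 were also higher in females in the 16 fish, and CYP19A1, RBP4 and GLDN had an unadjusted p below 0.05. Of the 10 genes lower in females, 1 (PPARA, log2 fold change -0.05 ± 0.06, SE) was also lower in females there. DNAJC17 was higher in females there, with an unadjusted p below 0.05. Over all genes 52.9% kept their sign. Some pooled values were small, with log2 fold changes of 0.05 for LRRC31, 0.08 for Nfu_g_1_006531 and 0.08 for Nfu_g_1_022875. Taken by age, 6 of the 10 genes higher in females were also higher at 39 dph and 9 at 73 dph. Of the 10 lower in females, 2 were also lower at 39 dph and 3 at 73 dph. The shares over all genes were 52.5% and 51.7% at these ages. Of the 41 genes that DESeq2 called at 108 dph, 30 kept their sign in the 16 fish and 10 did so with an unadjusted p below 0.05, against 4.01% over all genes.

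**Figure D4:**
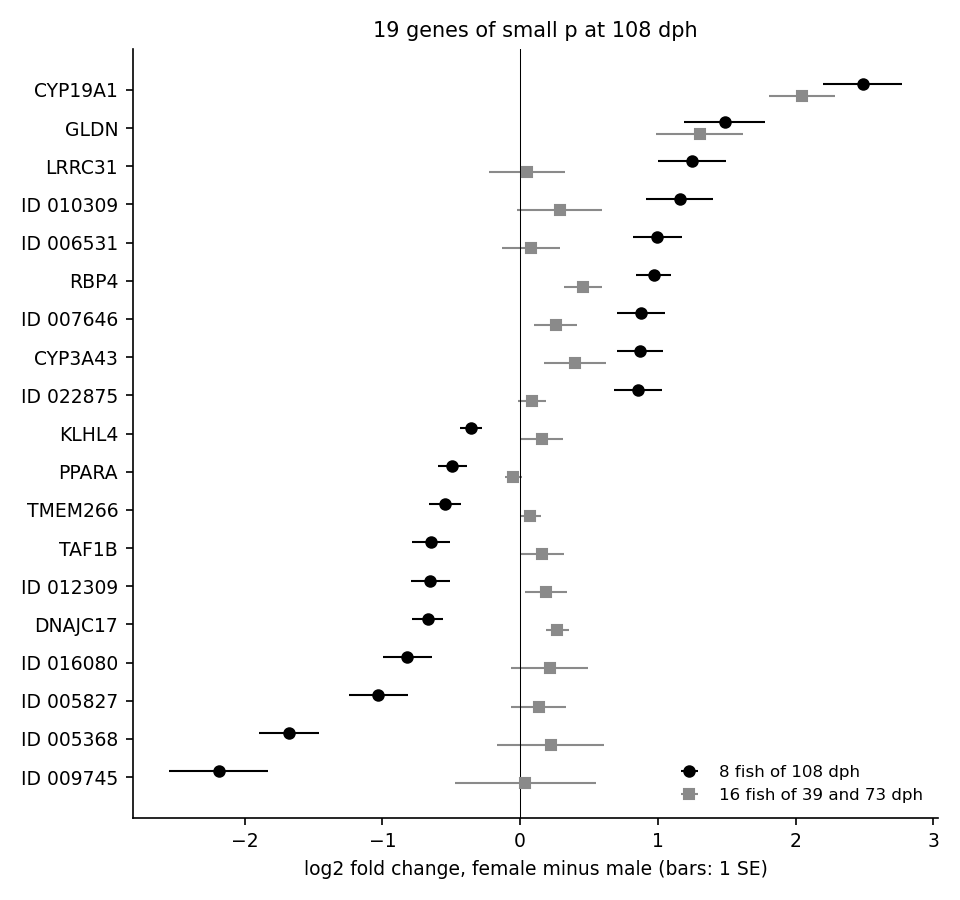
Log2 fold change (female minus male, x axis) of 19 of the 20 genes of smallest p at 108 dph, in the 8 fish of 108 dph (black circles) and in the 16 fish of 39 and 73 dph (grey squares); bars are 1 SE. CYP19A1 and GLDN lie at similar values in both sets of fish (2.49 and 2.04 for CYP19A1, 1.48 and 1.30 for GLDN), while DNAJC17 lies at -0.67 in the fish of 108 dph and 0.27 in the other fish.

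CYP19A1 in females of 39, 73 and 108 dph averaged 214.3 ± 45.6, 165.4 ± 40.6 and 247 ± 83.0 CPM, and in males 47.2 ± 12.7, 44.0 ± 29.5 and 44.1 ± 10.99 CPM (SD, n = 4 each). The difference between the sexes at 108 dph exceeded that at 39 dph by 0.31 and that at 73 dph by 0.58 ± 0.47 (SE) on the log2 scale, and neither difference passed the test (FDR 0.992 and 0.998). GLDN in females averaged 11.2, 9.75 and 13.8 CPM at the same ages, and in males 4.46, 4.03 and 4.93 CPM. RBP4 in females averaged 235.8, 251.6 and 364.5 CPM, and in males 157.5, 199.2 and 186.3 CPM. Its sex difference at 108 dph was larger by 0.39 than at 39 dph and by 0.64 ± 0.26 (SE) than at 73 dph on the log2 scale, without passing (FDR 0.945 and 0.951).

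A test of the difference itself, in 1 model of all 24 libraries, asked whether the fold change between the sexes at 108 dph departed from that at an earlier age. Against 39 dph it called no gene (0%), with 1093 genes at an unadjusted p below 0.05 and 1 gene called by DESeq2. Against 73 dph it called 1 of 19358 genes (0.00517%), DNAJC17, while DESeq2 called 4 genes. DNAJC17 in females of 39, 73 and 108 dph averaged 42.7 ± 3.76, 53.6 ± 6.11 and 47.2 ± 3.34 CPM, and in males 39.5 ± 5.29, 40.1 ± 4.53 and 75.1 ± 10.1 CPM. All females lay above all males at 73 dph and below all males at 108 dph. The difference of the log2 fold changes, 108 minus 73 dph, was -1.09 ± 0.16 (SE) with an FDR of 0.0135. It lost its call without male 4 of 73 dph and without each of female 2, female 4 and male 4 of 108 dph, where the FDR was 0.0549, 0.0501, 0.058 and 0.0521.

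**Figure D5:**
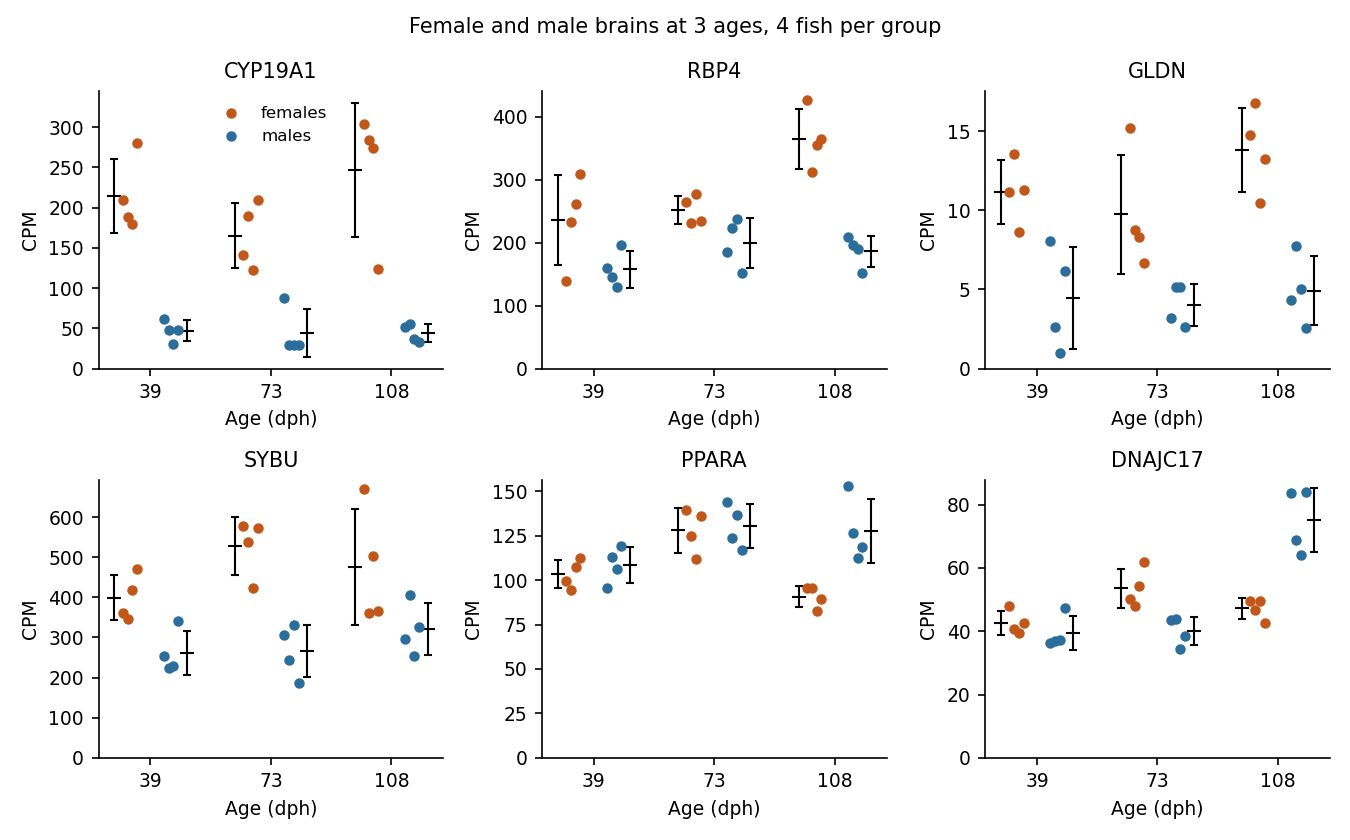
CPM of each fish (y axis) at 39, 73 and 108 dph (x axis) for 6 genes, females (orange) left of males (blue), with the mean and 1 SD of the 4 fish in black beside the points. Females lie above males at each age for CYP19A1, and DNAJC17 shows its highest values in the 4 males of 108 dph (64.1 to 83.9 CPM). CPM was scaled within each age.

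SYBU encodes syntabulin, which couples cargo to kinesin motors in axons. In the RefSeq annotation of this species (assembly NfurGRZ-RIMD1) sybu is listed next to gdf6a, which carries the name of the sex-determining gene. At 108 dph SYBU was at 669.1, 362.0, 502.6 and 366.2 CPM in females, against 295.2, 406.0, 255.0 and 327.1 CPM in males. The groups overlapped because male 2 lay above 2 females. The log2 fold change was 0.57 ± 0.21 (SE) with an FDR of 0.985, and without female 1 it was 0.35. In the 16 other fish SYBU was higher in females by 0.79 ± 0.13 (SE) on the log2 scale, with an FDR of 0.0825. The test of the difference gave -0.04 ± 0.28 for 108 minus 39 dph and -0.41 ± 0.28 for 108 minus 73 dph (SE, log2 scale), and neither passed.

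A supplementary list of 36 sex-dependent genes was made by the study on libraries of this dataset. The list's direction is therefore not independent evidence, and nor are the counts of its members given next. Which libraries entered the list was not settled here. At 108 dph 24 of the 36 passed the filter on low counts. Of these, 14 had an unadjusted p below 0.05 with higher values in females (against 2.91% of all genes) and 1 with lower values (against 2.01%). In 9 all females exceeded all males (against 1.61%), and in 1 all females lay below all males (against 1.15%). CYP2J2, an epoxygenase of fatty acids, was at 27.2, 27.4, 30.3 and 26.8 CPM in females, against 19.3, 17.7, 23.7 and 19.4 CPM in males. IRF9, the DNA-binding subunit of the factor that responds to type I interferon, was at 20.5, 19.8, 17.2 and 18.7 CPM in females, against 10.5, 11.8, 15.2 and 8.80 CPM in males. SLC7A6, a cationic amino acid transporter, overlapped by 1 fish in each sex, with 11.7 to 36.8 CPM in females and 4.79 to 12.8 CPM in males.

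The size of the sex difference in skin and epithelial markers turned mainly on 1 female. All 12 members tested had positive log2 fold changes with a median of 1.72, where 9222 of all 18468 genes had a positive one. At an unadjusted p below 0.05, 7 members were higher in females, against 2.91% of all genes. Their summed level was 88.6, 101.4, 93.6 and 313.8 CPM in females, against 67.4, 79.1, 73.7 and 59.0 CPM in males. Female 4 stood far above the other fish, with 26.3 CPM of the tight junction protein CLDN4 and 12.2 CPM of TP63, the transcription factor of stratified epithelia. Without female 4 the median of the list was 0.41, and each of the other females still lay above all 4 males in the summed level. In the 16 fish of the other ages the median of the 13 members tested was 0.53. Of all genes tested, 40 had a log2 fold change above 2, and female 4 held the highest value in 25 of them. In 25 of the 40 a single female held over 75% of the summed CPM of the 4 females. In 8 of the 40 all 4 females lay above all 4 males, against 1.61% of all genes. The 40 were picked by their fold change in these same fish, which favours such a gap. Another 10 genes were lower in females by a log2 fold change of more than 2. In 6 of these 10 a single male held over 75% of the summed CPM of the 4 males.

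The 10 red blood cell markers, whose sum was mostly that of both haemoglobin IDs, had a summed level of 1739, 1855, 2591 and 2389 CPM in females, against 1531, 1097, 1585 and 770.1 CPM in males, without overlap. Both haemoglobin IDs (named HBG1 after the human gene) were higher in every female than in any male, against 1.61% of all genes. Their log2 fold changes were 1.00 ± 0.29 and 0.99 ± 0.32 (SE). The erythroid transcription factor GATA1 stood at 0.95 ± 0.28 (SE), whereas SLC4A1, the anion exchanger of red cells, stood at 0.02 ± 0.09 (SE). In all, 8 of the 10 markers had positive log2 fold changes, against 9222 of all 18468 genes, and 2 had negative ones. At an unadjusted p below 0.05, 3 were higher in females, against 2.91% of all genes. None passed the FDR, and the part of blood RNA in RBP4 or other genes was not tested.

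Of 14 interferon response and antigen presentation genes tested, 10 had positive log2 fold changes, against 9222 of all 18468 genes, and the median was 0.40. At an unadjusted p below 0.05, 4 were higher in females (among them IRF9, IRF5 and RSAD2), against 2.91% of all genes. RSAD2, the antiviral protein viperin, was at 7.11, 5.67, 4.10 and 4.82 CPM in females, against 2.24, 2.37, 3.54 and 1.24 CPM in males. In 2 members, RSAD2 and IRF9, all females lay above all males, against 1.61% of all genes. IRF9, which is also on the study's list of sex-dependent genes, was called by DESeq2 (adjusted p 0.0458). In the 16 fish of the other ages the median of the list was 0.23.

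Among the 24 clock genes tested, 3 were higher in females at an unadjusted p below 0.05, against 2.91% of all genes, and none was lower. All 3 were IDs named NR1D2, a repressor of the circadian clock. Their log2 fold changes were 0.63 ± 0.16, 0.41 ± 0.13 and 0.56 ± 0.17 (SE). Nfu_g_1_010257 was at 18.8, 16.2, 17.4 and 17.9 CPM in females, against 11.5, 11.2, 8.33 and 14.2 CPM in males. The other 2 NR1D2 IDs stood at 0.43 ± 0.23 and 0.04 ± 0.09 (SE), and the median of the clock list was 0.10. Per the study's methods all wild fish were dissected in the morning, but the hour of each fish was not in the labels.

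Of 25 neuropeptide, hormone and receptor genes tested, 3 were higher in females at an unadjusted p below 0.05, against 2.91% of all genes, and none was lower. CHGB, a protein of secretory granules, was at 397.2, 327.3, 440.1 and 423.4 CPM in females, against 274.5, 311.2, 300.2 and 222.7 CPM in males, with no overlap. VIPR1, a receptor for vasoactive intestinal peptide, averaged 18.6 ± 2.01 CPM in females and 13.9 ± 1.51 CPM in males (SD, n = 4 each). The third was PNOC, the precursor of nociceptin, at a log2 fold change of 0.53 ± 0.24 (SE). AVP, the gene of the vasopressin-type peptide, was at 42.0, 38.4, 42.7 and 23.1 CPM in females, against 90.1, 62.5, 55.1 and 19.2 CPM in males, and overlapped through male 4.

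No member tested of the cholesterol synthesis and astroglia lists had a positive log2 fold change, while 9222 of all 18468 genes did. The 13 genes of the cholesterol list had a median of -0.26 and a range of -0.80 to -0.04, and without male 3 the median was -0.16. LSS, lanosterol synthase, was the 1 of these 13 genes with an unadjusted p below 0.05, against 2.01% of all genes lower in females at that level, at 1.53, 2.04, 1.46 and 2.38 CPM in females, against 3.32, 2.26, 4.01 and 3.38 CPM in males. The 5 astroglia and radial glia IDs (GFAP, S100B, SLC1A2 and a pair named FABP7) had a median of -0.37, or -0.17 without male 3, and none had an unadjusted p below 0.05. S100B was highest in males 1 and 3 and GFAP in male 3. S100B was at 2665, 2469, 2730 and 3103 CPM in females, against 4362, 2421, 4733 and 2615 CPM in males. GFAP was at 1218, 868.8, 1087 and 1391 CPM in females, against 1330, 1447, 2378 and 983.5 CPM in males. In the 16 fish of the other ages the median was -0.01 for the cholesterol list and -0.04 for the astroglia list.

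The medians of the other lists lay between -0.12 and 0.16, against 0.00 over all genes. The neuron list of 26 IDs had a median log2 fold change of 0.05 and no member with an unadjusted p below 0.05. Heat shock genes had a median of -0.03 and the motile cilium list -0.03. Positive log2 fold changes were found in 8 of 17 cilium genes, against 9222 of all 18468 genes. At an unadjusted p below 0.05, 1 cilium gene was higher in females (CFAP43, 0.73 ± 0.18, SE), against 2.91% of all genes. At that level 1 was lower (CFAP57, -1.10 ± 0.32, SE), against 2.01% of all genes. Of 38 mitotic genes, 7 had positive log2 fold changes, against 9222 of all 18468 genes, and the median was -0.09. That median ranged over -0.23 to 0.02 when 1 fish was left out, with the highest value without male 3. NDE1 was higher and NUF2 and TYMS were lower in females at an unadjusted p below 0.05, 3 of 38 genes against 4.92% of all genes. Of 21 immediate early genes FOSB and FOSL1 were higher in females at an unadjusted p below 0.05 (against 2.91% of all genes), mainly through female 4. Connective tissue genes had a median of 0.16, eye and pigment genes -0.04, muscle genes -0.12 and gonad genes -0.01. In the 16 fish of the other ages the median of the mitotic list was 0.03.

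DESeq2 called 21 genes beyond the 20 of smallest p, 19 higher and 2 lower in females, all with an edgeR FDR of at least 0.755. Among those with a name, C16orf89 ranged over 55.9 to 73.3 CPM in females, against 32.6 to 52.8 CPM in males. SLC27A2, a fatty acid transport protein, ranged over 8.31 to 14.2 CPM in females, against 5.51 to 7.08 CPM in males. In both the sexes did not overlap, with all females above all males, against 1.61% of all genes. Both were picked as DESeq2 calls in these same fish, which favours such a gap. ASTL, an astacin-like metalloprotease, ranged over 5.12 to 12.8 CPM in females, against 1.92 to 4.63 CPM in males. SIGIRR, an inhibitor of interleukin receptor signalling, ranged over 2.06 to 8.52 CPM in females, against 1.13 to 2.24 CPM in males, and overlapped. Nfu_g_1_006237, without a name, had an edgeR log2 fold change of 1.74 at 108 dph and 1.79 in the 16 other fish.

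Some genes were high in 1 to 3 fish of 1 sex at 108 dph. Nfu_g_1_002335 was at 0.061, 0.110, 0.208 and 0.108 CPM in females, against 9.59, 0.220, 9.06 and 7.39 CPM in males. It was thus near 0 in all females and in male 2 and high in the other 3 males. At 39 dph it stood at 0.112 to 0.566 CPM in females and reached 8.46 CPM in 1 male, and at 73 dph no fish passed 1 CPM. Nfu_g_1_012527 was below 0.4 CPM in all 4 females of 108 dph and stood at 0.288, 0.110, 6.92 and 6.20 CPM in males, but it also reached 9.06 CPM in 1 female of 73 dph. ZP4, an egg coat protein, was at 0.061, 29.3, 0.208 and 0.217 CPM in females, against 0 to 0.055 CPM in males, so it passed 1 CPM in 1 female. MYOM3, a protein of the muscle M-band, was at 0.379 to 1.38 CPM in females and at 0.721, 0.716, 32.4 and 0.902 CPM in males.

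Neither of the first 2 principal components separated the sexes by the test. The first principal component held 25.3% of the variance, with a mean score of -6.03 ± 26.9 in females and 6.03 ± 32.2 in males (SD, n = 4 each, exact permutation test, two-sided, p = 0.686). The second held 17.96%, with -6.08 ± 19.3 in females and 6.08 ± 29.2 in males (SD, n = 4 each, exact permutation test, two-sided, p = 0.457). Adjusted over both components p was 0.686 for each, and the smallest p that 4 against 4 fish allow is 0.0286. On the third component females 1 to 4 scored -41.4, -5.11, -16.2 and 3.80, against 18.1, 1.21, 10.8 and 28.7 in males 1 to 4. The sexes overlapped there through female 4. The planned test covered the first 2 components, so none is given for the third. The SD of log2 CPM among the 4 fish had a median over genes of 0.20 in females and 0.23 in males. The median absolute difference of the sex means was 0.11. Means of 4 fish vary less than single fish, so these values cannot be set against each other directly.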

How the data were processed

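Per the labels and the study's methods, the authors made single-end reads from stranded poly(A) libraries, mapped them with TopHat2 (version 2.1.0) to the hardmasked killifish genome and counted them per gene and strand with featureCounts (version 1.5.0), after bcl2fastq (version 1.8.4). Each read kept at most 1 position. The deposited counts are raw. The deposited RPM values are the same counts relative to all assigned reads, and the deposited RPKM values, divided further by gene length by the authors, were used only to compare levels between genes.

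Counts were analysed in R (4.3.3). edgeR (4.0.16) tested females against males with its quasi-likelihood F test, on genes kept by filterByExpr (minimum count 10) with TMM scaling and Benjamini-Hochberg adjustment over all genes tested. Principal components used log2 CPM with a prior count of 2. DESeq2 (1.42.0), other filters, DESeq2 size factors, a shared fit of 24 libraries with 6 group means, an FDR of 0.01 and leaving out each fish were tried as alternatives. Leaving out the 3 libraries rich in GH1 and the joint fit of the 16 fish of 39 and 73 dph were chosen after seeing the data. The code was tested on simulated data. No sample number pairs fish across sexes. The labels do not say more of a replicate than its fish, so p-values measure the spread between fish.

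The gene lists and the comparison were chosen with earlier results of these data known. Named genes follow a rule: the genes called, or where fewer than 10 were called in a direction the 10 of smallest p; the IDs named CYP19A1, ESR1 and SYBU; and genes called in the tests between ages. IDs that share a human name may be paralogs, between which reads can be split. 1 of the 20 genes of smallest p and some members of the gene lists are not reported here by name. No sequences were used here.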

Additional observations from a re-analysis of the deposited data

Results flagged for a closer look

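In each group of 4 fish, the gap between the highest or lowest fish and its nearest neighbour was divided by the range of the group and held against Dixon's 95% critical value. Of 92 groups checked, 8 held such a fish. At that critical value chance flags about 1 in 20 groups, but the groups share fish and genes and are not independent, so the 8 cannot be read against that rate. Female 4 was the fish apart in CYP19A1 (123.8 CPM), in the summed steroid hormone list that contains it (523.2 CPM), in Nfu_g_1_007646 (50.7 CPM) and in the summed skin and epithelial markers (313.8 CPM). Female 2 was apart in the summed neuropeptide and hormone list (6860 CPM), which GH1 dominates, and in the summed gonad and egg coat list (79.1 CPM). Male 1 was apart in the low CYP19A1 ID Nfu_g_1_016264 (1.37 CPM). Male 4 was apart on the first principal component (score 53.98).

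DNAJC17 was the 1 gene whose sex difference departed between ages by the test of the difference itself, at -1.09 on the log2 scale for 108 minus 73 dph.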

How the results depend on the processing

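The count of 0 genes called at 108 dph stayed at 0 with DESeq2 size factors, without a filter, with the study's filter and at an FDR of 0.01, but it was 41 with DESeq2 and 2 with the spread of 24 libraries (CYP19A1 and DNAJC17). Leaving out 1 fish gave 0 to 1 calls (CYP19A1 without female 4, Nfu_g_1_002335 without male 2), and leaving out the 3 GH1-rich libraries together gave 2 (Nfu_g_1_002335 and Nfu_g_1_012527, chosen after seeing the data). That fit kept only females 1, 3 and 4 and males 3 and 4. The males left out included male 2, low in Nfu_g_1_002335 (0.220 CPM), and males 1 and 2, low in Nfu_g_1_012527 (0.288 and 0.110 CPM). DESeq2 called 48 genes at 39 dph and 31 at 73 dph, and leaving out 1 fish gave 0 to 3 and 0 to 2 calls. In the 16 fish of both ages it gave 1 to 4 calls. For the differences between ages DESeq2 called 1 gene against 39 dph and 4 against 73 dph, and leaving out 1 fish gave 0 to 1 and 0 to 2 calls; DNAJC17 ranged over -1.17 to -1.02 there. Among the named genes, 1 changed direction, the ESR1 ID Nfu_g_1_018712, which ranged over -0.076 to 0.23 when 1 fish was left out (-0.066 without female 1, -0.0012 without male 3, -0.076 without male 4). The median of the skin list ranged over 0.41 to 2.08 when 1 fish was left out, with the lowest value without female 4. Without the 3 GH1-rich libraries that median was 2.81 and the median of the cholesterol list was -0.48. Without male 3 the cholesterol median was -0.16 and the astroglia median -0.17. The cause of these shifts was not tested. No paired analysis was possible because the replicate numbers follow accession order and pair no fish. With 4 fish a group, differences between the sexes may have gone undetected, and the size that could be detected was not measured. This was not limited to low counts. CYP19A1 had 585 to 5171 reads per library and a ratio of means of 5.601, and it did not pass in the main edgeR fit.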
